A study of Homo sapiens with 18 samples.

Results

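The zinc finger genes of chromosome 19 were followed in RPE1, an immortalised human line derived from retinal pigment epithelium, as protein-coding genes whose symbols start with ZNF and whose mean level was 0.1 RPKM or more over all libraries. Of 249 such genes annotated on the chromosome, 247 were in the table and 182 reached the minimum, among 19360 genes of any kind that did so and 57773 genes listed. RPKM here means reads per M reads (M, mega) and per kilobase of gene, introns included. The 65 genes under the minimum are not counted as members.

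All 6 clones came from cells that had survived 72 h in 2.5 uM ZM447439, an Aurora kinase inhibitor that lets cells leave mitosis undivided. Surviving populations grew for weeks, were cloned from single cells and were classed by their DNA content into tetraploid (4N) and diploid (2N) clones. The tetraploid clones 4N-1, 4N-2 and 4N-3 were compared with the diploid clones 2N-1, 2N-2 and 2N-3, each taken from the plates of its partner, so that the diploid clones carry the drug history too. 4N-2 and 2N-2 were also stained with Hoechst 33342 before they were cloned again. Every group is 1 clone with 3 libraries (A, B and C) described as biological replicates, so a test between clones is about those clones, and a difference between ploidies cannot be told apart from one between clones except across the 3 pairs.

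Most ZNF genes of chromosome 19 encode proteins with a KRAB domain and a row of C2H2 zinc fingers. The fingers bind DNA, often in transposable elements, and the KRAB domain recruits TRIM28 with SETDB1 and HP1 proteins, which lay down repressive chromatin. The genes arose by tandem duplication and lie in clusters, and the promoters of several, ZNF154 among them, are known to be methylated in tumours. They are transcribed at low levels in many tissues.

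Promoters are shown for the members with the largest changes between clones whose start in RefSeq lies near the end of the gene given by GENCODE. The sequences are from RefSeq (GRCh38.p14), 250 bases before to 50 after the start, 5′ to 3′ on the strand of the gene, with every CG dinucleotide in capitals. ZNF528 is on the plus strand at chr19:52397599-52397898 and holds 27 CG dinucleotides. ZNF154, on the minus strand at chr19:57709155-57709454, holds 14, and ZNF558, on the minus strand at chr19:8832255-8832554, holds 34.
ZNF528: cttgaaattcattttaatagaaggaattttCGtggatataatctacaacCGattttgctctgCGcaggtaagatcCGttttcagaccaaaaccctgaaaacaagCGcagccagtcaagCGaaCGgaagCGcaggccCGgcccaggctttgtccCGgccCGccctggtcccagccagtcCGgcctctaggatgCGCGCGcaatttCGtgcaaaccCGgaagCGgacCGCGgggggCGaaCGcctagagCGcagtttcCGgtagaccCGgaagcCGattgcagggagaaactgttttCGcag
ZNF154: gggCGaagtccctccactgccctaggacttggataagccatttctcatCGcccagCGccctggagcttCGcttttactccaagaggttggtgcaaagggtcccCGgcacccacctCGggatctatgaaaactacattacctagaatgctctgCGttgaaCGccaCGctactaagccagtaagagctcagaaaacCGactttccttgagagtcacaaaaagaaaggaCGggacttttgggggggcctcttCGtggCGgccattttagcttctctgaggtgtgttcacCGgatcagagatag
ZNF558: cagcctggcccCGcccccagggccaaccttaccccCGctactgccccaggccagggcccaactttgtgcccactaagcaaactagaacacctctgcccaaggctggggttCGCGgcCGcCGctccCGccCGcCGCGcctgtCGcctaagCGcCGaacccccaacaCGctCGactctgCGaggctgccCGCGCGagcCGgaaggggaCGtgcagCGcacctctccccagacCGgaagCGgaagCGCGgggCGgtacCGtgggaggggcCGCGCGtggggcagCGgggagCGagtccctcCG
A promoter was found for 162 of the 182 members. The letters CCGGAAG, which contain the core bound by ETS factors, occurred on either strand in 78 of them (48.1%), against 10.3% of all 35116 promoters of the RefSeq set. That set was not filtered by gene type or level, as the members were, so it is an unlike background for the shares given here. The letters are in the promoters of ZNF528 and ZNF558, and not in that of ZNF154. TATAAA occurred on either strand in 1.9% of member promoters and 11.5% of all. The median was 21 CG dinucleotides per member promoter (2 to 42) and 14 over all. Across the 162 members, the CG count and the log2 span between the highest and lowest clone had a Pearson r of -0.058 and a Spearman rho of -0.145. A match of letters is a description of the window, not a bound site.

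The libraries held 35.4 to 51.8 M reads in genes, recovered as whole reads from the RPKM values. A member had 1019 to 58516 reads summed over the 18 libraries (median 6613), and a mean of 0.104 to 5.58 RPKM (median 0.337). KRT18 (64.7 to 122 RPKM) and KRT8, of simple epithelia, and OTX2 (2.21 to 4.76 RPKM), of retinal pigment epithelium, were present in every library, while of 10 markers of that tissue only OTX2 and BEST1 (0.0744 to 0.476 RPKM) reached the minimum. RPE65, RLBP1, TYR, TYRP1 and RGR were at 0 to 0.0268 RPKM, PMEL at 0.0145 to 0.0487, LRAT at 0.0268 to 0.0949 and MITF at 0.0647 to 0.102 RPKM. CDH1 and EPCAM, of epithelia, stayed at 0.00397 RPKM or less. Of 9 markers of other cells, TUBB3, of neurons, reached the minimum at 5.34 to 12.95 RPKM, MYH11 and DES reached 0.0461 and 0.0330, and the rest stayed at 0.0116 RPKM or less. Library A of 2N-3 stood apart at -105.6 on the second principal component, against 0 to 18.1 for the other 17, and its members lay a median log2 difference of -0.15 from their clone mean. For ZNF358, the member with the highest mean, it was at 10.4 RPKM, against 5.79 and 5.48 in B and C. RPKM is a share of the RNA in a library, so the amount per cell was not measured, and a lower level in every cell cannot be told apart from fewer cells with the transcript.

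ZNF358, ZNF581, ZNF580, ZNF579 and ZNF302 had the highest means, and ZNF808, ZNF544 and ZNF587B had the smallest span among clones. ZNF808 shows how steady a member could be: its 3 libraries lay at 0.224, 0.220 and 0.216 RPKM in 4N-1 against 0.1997, 0.215 and 0.208 RPKM in 2N-1. At the minimum, ZNF429 (0.104 RPKM), ZNF30 (0.109 RPKM) and ZNF154 (0.113 RPKM) were just inside, and ZNF585A (0.0967 RPKM), ZNF66 (0.0970 RPKM) and ZNF460 (0.0978 RPKM) just outside. All 6 clone means were at 0.1 RPKM or more in 172 members.

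Differences were tested with limma on log2(RPKM + 0.05) over all 19360 genes, with Benjamini-Hochberg adjustment. Rose and fell are used at an adjusted p under 0.05. A gene counts as lost or gained in a clone where it also changed 2-fold or more against the mean of the other 5 clones, and SE is the standard error of a log2 change. The constant of 0.05 shrinks the change of genes at low levels. Over the 6 clones together, 107 of 182 members differed by the F test (58.8%), where the share over all tested genes was 45.6%. With a span of 2-fold or more, 16 differed (8.79%), where the share over all tested genes was 14.7%. It was 27 with a constant of 0.01 RPKM (14.8%, all genes 16.4%), 1 with 0.5 RPKM (0.549%, all genes 5.81%) and 32 with limma-voom on recovered reads (17.6%, all genes 17.2%). Under each of these settings, most members had a span below 2-fold or did not pass. The ZNF genes of other chromosomes stood at 9.95% of 201 and the other protein-coding genes of chromosome 19 at 15.3% of 706 for the same rule.

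**Figure D1:**
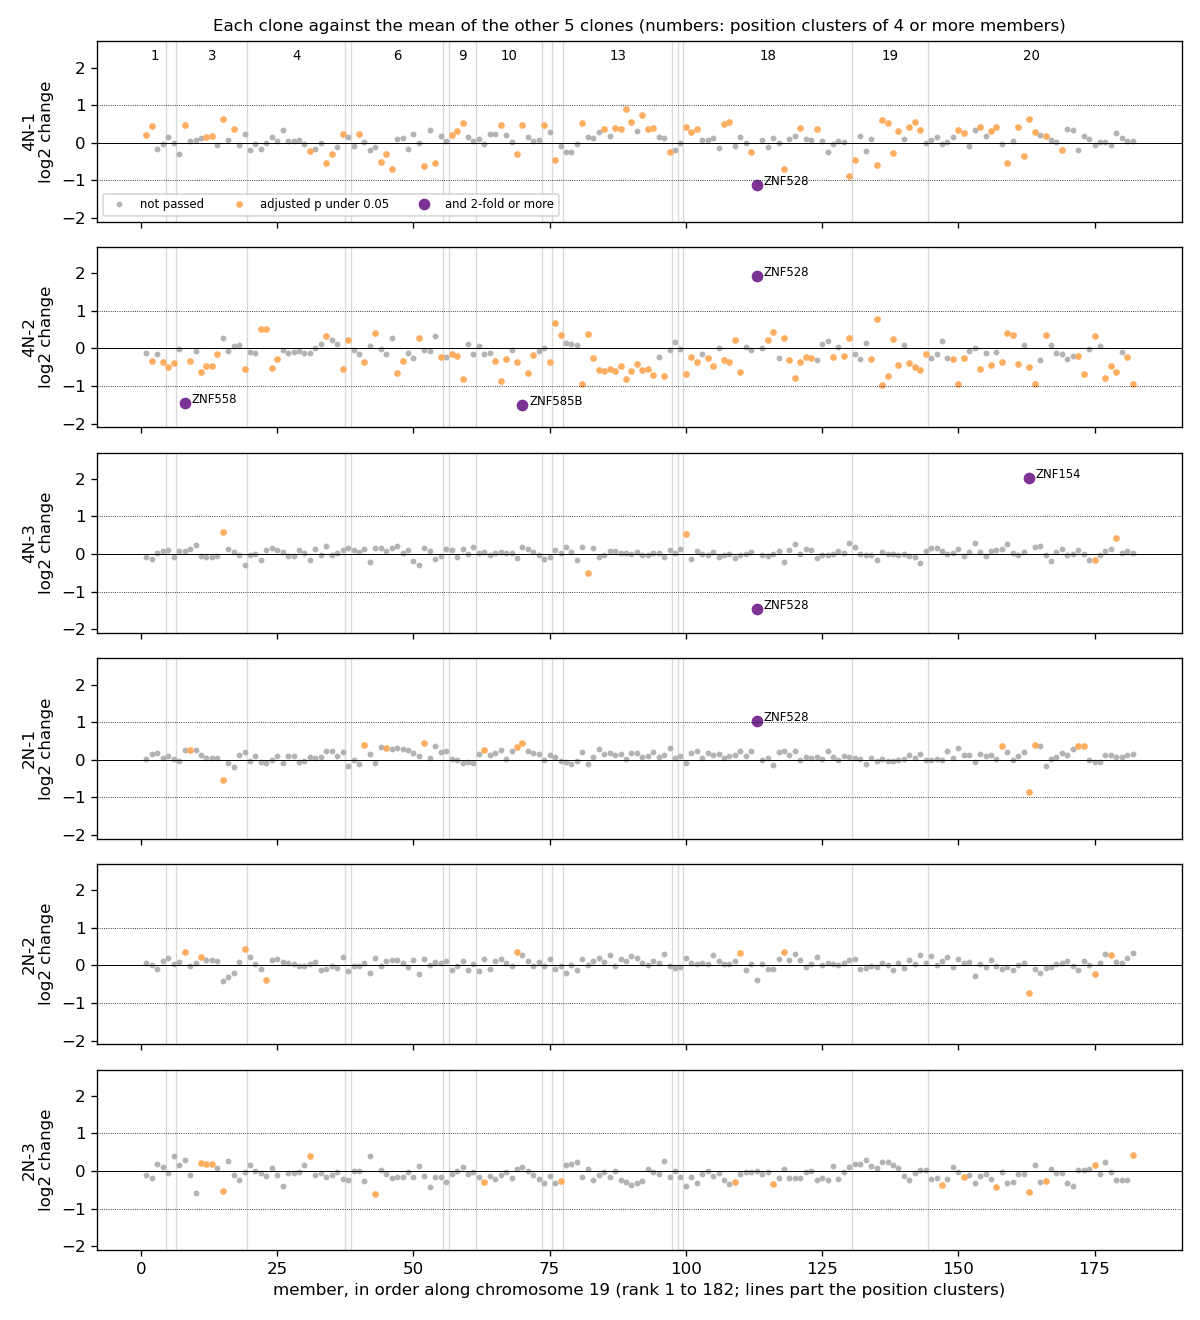
Log2 change of each of the 182 members (vertical axis) in 1 clone against the mean of the other 5, in chromosomal order (horizontal axis, rank), 1 panel per clone; orange points passed an adjusted p under 0.05 and purple points also changed 2-fold or more. The 4N-2 panel has 82 members that fell, with a run of them in cluster 13, and ZNF528 is called in 4 of the 6 panels.

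On RPKM, 4 members were lost or gained in a clone. ZNF585B and ZNF558 were lost in 4N-2 (1.10% of members, where 4.17% of all tested genes were lost), and ZNF528 was gained there (0.549%, where the share was 3.25%). ZNF528 was lost in 4N-1 (0.549% against 1.58%) and in 4N-3 (0.549% against 0.31%). ZNF154 was gained in 4N-3 (0.549% against 0.155%). ZNF528 was gained in 2N-1 (0.549% against 0.15%), and without library A of 2N-3 its log2 change there was 0.998, just under the 2-fold limit. No member was gained in 4N-1 (0.744% of all tested genes were) or lost in 2N-1 (0.372%). None was lost or gained in 2N-2 (0.372% and 0.165% of all) or in 2N-3 (0.196% and 0.289%). Without library A of 2N-3 the other counts of lost and gained members were the same numbers. With limma-voom on recovered reads, 9 members were lost in 4N-2 (4.95%, where 5.0% of all genes were). By that fit 2 were lost and 2 gained in 4N-1 (1.1% each, where 2.04% and 1.35% were). In 2N-1 and 2N-2, 1 each was lost (0.549% each, where 0.471% and 0.476% were).

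ZNF528, a KRAB zinc finger gene in cluster 18 (ENSG00000167555, chr19:52397849-52418412, plus strand), had the widest range of all members. Its 3 libraries lay at 0.0415, 0.0306 and 0.0260 RPKM in 4N-1, against 0.255, 0.236 and 0.230 RPKM in 2N-1. In pair 2 they lay at 0.470, 0.439 and 0.393 RPKM in 4N-2, against 0.0715, 0.0915 and 0.0709 RPKM in 2N-2. In pair 3 they lay at 0.0103, 0.0201 and 0.0263 RPKM in 4N-3, against 0.0687, 0.152 and 0.122 RPKM in 2N-3. The groups did not overlap in any pair, and the 4N clone was the lower in pairs 1 and 3 and the higher in pair 2. By limma, pair 1 had a log2 change of -1.82 (SE 0.17, adjusted p 1.24e-05). Pair 2 had one of 1.92 (SE 0.17, adjusted p 1.29e-06), and pair 3 one of -1.23 (SE 0.17, adjusted p 0.000991). In reads per library size the ratio was 0.135 (95% exact interval 0.107 to 0.168, 90 against 606 reads) for 4N-1 over 2N-1, 5.50 (4.78 to 6.35, 1101 against 242 reads) for 4N-2 over 2N-2 and 0.165 (0.119 to 0.224, 49 against 294 reads) for 4N-3 over 2N-3. Intervals of reads cover counting error only.

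The expressed members next to ZNF528 changed by 0.40 or less on the log2 scale in every pair. ZNF480, upstream, had log2 changes of -0.40 in pair 1 (adjusted p 0.0063 by limma), and -0.06 and 0.06 in pairs 2 and 3, which did not pass. ZNF808, downstream, had 0.07, -0.03 and 0.04 in the order of the pairs, and none of these passed. ZNF701, the next one downstream, rose by 0.28 in pair 2 (adjusted p 0.00224 by limma), and its changes of -0.13 and -0.01 in pairs 1 and 3 did not pass. ZNF808 and ZNF701 overlap on the same strand, so their reads are uncertain.

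ZNF154 in cluster 20 (ENSG00000179909, chr19:57697367-57709194, minus strand) was high in 4N-3 and, less so, in 4N-1. Its libraries lay at 0.352, 0.308 and 0.468 RPKM in 4N-3, against 0.0701, 0.0356 and 0.0327 RPKM in 2N-3. They lay at 0.146, 0.154 and 0.121 RPKM in 4N-1, against 0.0308, 0.0305 and 0.0297 RPKM in 2N-1. In pair 2 both clones were low, at 0.0578, 0.0445 and 0.0417 RPKM in 4N-2 against 0.0306, 0.0416 and 0.0336 RPKM in 2N-2. The log2 changes were 2.15 (SE 0.17, adjusted p 5.37e-06) in pair 3 and 1.24 (SE 0.17, adjusted p 0.000288) in pair 1 by limma, and 0.20 in pair 2, which did not pass (adjusted p 0.418). The ratio of reads was 8.41 (95% exact interval 6.5 to 11.1) for 4N-3 over 2N-3 and 4.62 (3.33 to 6.54) for 4N-1 over 2N-1. ZNF154 overlaps ZNF551 and AC003006.1, which lie on the opposite strand. Whether strand was used in counting is not given in the sources used here, so the reads of ZNF154 are uncertain. Such overlap is common: 126 of the 182 members overlap another gene, and 87 overlap one on the opposite strand. The same doubt holds for their reads, also where overlap is not named here. ZNF551 itself had a log2 change of 0.11 in pair 3 (adjusted p 0.666) and -0.48 in pair 1 (adjusted p 0.0278 by limma). ZNF671, the next member, did not pass in pair 3 or pair 1, at 0.02 and -0.10.

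ZNF528 and ZNF154 were also the members with a clone at 10% or less of their highest clone, in 4N-1 and 4N-3 for ZNF528 and in 2N-1 and 2N-2 for ZNF154. That is 1.10% of members, where 2.94% of all tested genes had such a clone. At 5% or less it was ZNF528 alone (2.25% of all tested genes), and at 20% or less ZNF585B was the third, in 4N-2 (5.87% of all).

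**Figure D2:**
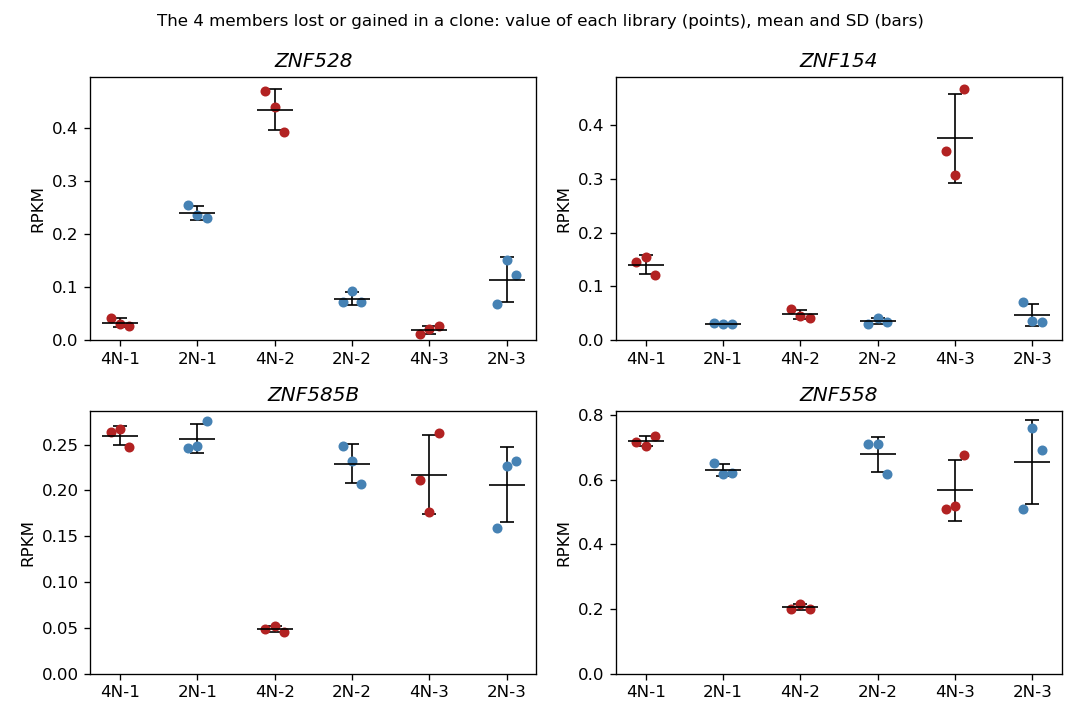
RPKM (vertical axis) of each library (points; red 4N, blue 2N) in the 6 clones for the 4 members lost or gained in a clone, with the mean and SD of 3 libraries in black. ZNF585B and ZNF558 are low in 4N-2 alone, ZNF154 is highest in 4N-3, and ZNF528 is highest in 4N-2 and lowest in 4N-3.

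ZNF558 in cluster 3 (ENSG00000167785, chr19:8806170-8832328, minus strand), a KRAB zinc finger gene, was low in 4N-2 alone. Its libraries lay at 0.198, 0.216 and 0.2003 RPKM in 4N-2, against 0.709, 0.709 and 0.617 RPKM in 2N-2. The lowest of the other 15 libraries was at 0.509 RPKM, so 4N-2 did not overlap with any other clone. The log2 change was -1.45 (SE 0.10, adjusted p 3.17e-08 by limma) against the other 5 clones and -1.51 in pair 2 (adjusted p 4.51e-07). The ratio of reads of 4N-2 over 2N-2 was 0.301 (95% exact interval 0.274 to 0.330). ADAMTS10, the other tested protein-coding gene within the bounds of cluster 3 and a secreted metalloprotease, averaged 0.0158 ± 0.0035 RPKM in 4N-2 and 1.37 ± 0.20 RPKM in 2N-2 (SD, n = 3 each), and fell by 4.42 on the log2 scale in pair 2 (adjusted p 5.25e-10 by limma). The members on either side of ZNF558 differed less: ZNF414 had a log2 change of -0.09 (adjusted p 0.736) and ZNF317 of -0.26 (adjusted p 0.0367) in pair 2.

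ZNF585B in cluster 10 (ENSG00000245680, chr19:37181579-37218153, minus strand) showed the same clone as low. Its libraries lay at 0.0485, 0.0521 and 0.0454 RPKM in 4N-2, against 0.248, 0.232 and 0.206 RPKM in 2N-2. The log2 change was -1.51 (SE 0.10, adjusted p 3.65e-08 by limma) against the other 5 clones, and the ratio of reads of 4N-2 over 2N-2 was 0.211 (95% exact interval 0.182 to 0.244). Of its windows of 50 transcript bases, 17.6% also occur in another gene, mostly ZNF585A, so the counts of the pair are uncertain. ZNF383, a member whose start overlaps that of ZNF585B on the opposite strand, lay at 0.0897, 0.0907 and 0.0742 RPKM in 4N-2, against 0.153, 0.177 and 0.155 RPKM in 2N-2. It fell in 4N-2 too, by 0.66 against the other 5 clones (adjusted p 0.000275 by limma).

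The shift of 4N-2 went beyond these genes. In 4N-2, 82 members fell against the other 5 clones (45.1%, where 22.4% of all tested genes fell) and 21 rose (11.5%, where 21.3% rose). The median log2 change was -0.16 over the members and -0.02 over all tested genes. ZNF genes of other chromosomes shared it, with 81 of 201 that fell and a median of -0.145, while the other protein-coding genes of chromosome 19 had 127 of 706 that fell and a median of 0.06. 4N-2 was the lowest of the 6 clones in 102 of 182 members (56.0%), and in 31.9% of all tested genes. In 4N-1, 46 members rose (25.3%, where 13.3% of all rose) and 21 fell (11.5%, where 14.3% fell), with a median of 0.09 and 122 of 182 members above 0. These comparisons share libraries, since each clone is part of the mean that the others are set against. Without library A of 2N-3, the members that fell in 4N-2 were 97 and those that rose in 4N-1 were 66. Without library A or B of 4N-1, those that rose in 4N-1 were 30.

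The other clones had fewer members that passed. In 4N-3, 4 members rose (1.57% of all tested genes did) and 3 fell (1.88%). In 2N-1, 12 rose (2.12%) and 2 fell (4.11%), and the median was 0.10, with 141 of 182 members above 0. In 2N-2, 7 rose (2.53%) and 3 fell (3.24%), with a median of 0.06. In 2N-3, 6 rose (3.08%) and 11 fell (4.01%), with a median of -0.07 that was -0.01 without its library A.

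**Figure D3:**
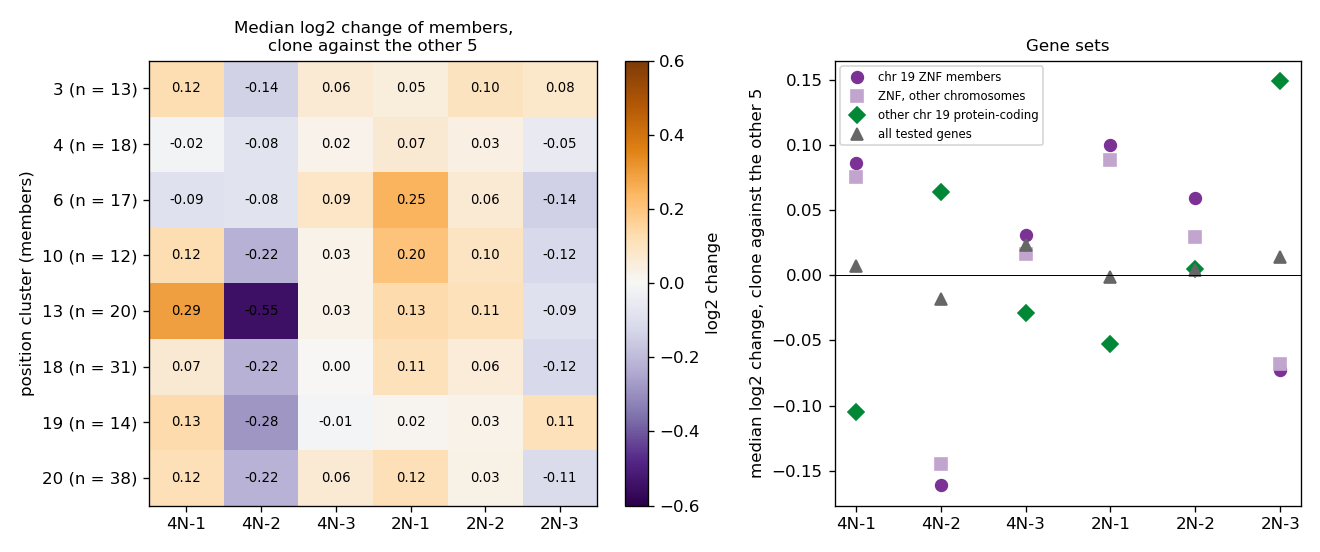
Left: median log2 change of the members of each position cluster of 12 or more members, clone against the other 5 (colour and numbers). Right: the same median over 4 sets of genes; the members and the ZNF genes of other chromosomes lie together below 0 in 4N-2, where the other genes of chromosome 19 lie at 0.06.

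By position, genes were split wherever the starts of annotated neighbours lay over 500 kb apart. This gave 20 clusters, 17 of them with members, numbered from the end of the short arm (coordinates are GRCh38). The largest were cluster 20 (chr19:57191500-58481230, 38 members of 43 genes), cluster 18 (chr19:51571298-53580269, 31 of 40) and cluster 13 (chr19:43525497-44500524, 20 of 23). Cluster 6, at chr19:19668796-24129961, had 17 of 37 genes above the minimum, and cluster 4, at chr19:11483427-12640098, had 18 of 26. The other protein-coding genes within the bounds of a cluster were taken by symbol and position alone. They include zinc finger genes with other symbols, such as ZIK1, ZSCAN18 and HKR1. Some overlap a member, as AC003006.1 does ZNF154, so they are not a comparison set free of member reads.

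Cluster 13 had the highest share of fallen members in 4N-2 among the clusters of 12 or more. There, 14 of its 20 members fell and 1 rose, with a median log2 change of -0.55. The 10 other protein-coding genes within its bounds had 5 that fell and 2 that rose, with a median of -0.12. In 4N-1, 9 of the 20 members rose and 1 fell, with a median of 0.29, and 5 of the 10 other genes rose, with a median of 0.24. The members that fell in 4N-2 ran from ZNF283 to ZNF285, with 2 exceptions in between: ZNF404 rose by 0.40 (adjusted p 0.00109 by limma), and ZNF112, at -0.23, did not pass (adjusted p 0.0638). ZNF575, ZNF576 and ZNF428 at one end and ZNF180 at the other did not pass, at 0.14, 0.11, 0.09 and -0.03.

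ZNF283 lay at 0.213, 0.177 and 0.198 RPKM in 4N-2, against 0.416, 0.422 and 0.401 RPKM in 2N-2. ZNF284 lay at 0.418, 0.502 and 0.453 RPKM in 4N-1, against 0.254, 0.246 and 0.260 RPKM in 2N-1. In pair 2 it lay at 0.132, 0.175 and 0.113 RPKM in 4N-2, against 0.262, 0.261 and 0.296 RPKM in 2N-2. In all of these the libraries of the clones did not overlap, and ZNF284 was high in 4N-1 as well as low in 4N-2. Its log2 change was 0.74 in pair 1 (SE 0.12, adjusted p 0.00076 by limma) and -0.78 in pair 2 (SE 0.12, adjusted p 0.000147). ZNF234, beside it, averaged 0.757 ± 0.016 RPKM in 4N-1 and 0.495 ± 0.030 RPKM in 2N-1 (SD, n = 3 each), and 0.326 ± 0.015 RPKM in 4N-2 and 0.493 ± 0.015 RPKM in 2N-2. ZNF227, ZNF155 and ZNF222 had log2 changes of -0.71, -0.59 and -0.59 in 4N-2 against the other 5 clones. ZNF224, known to repress the aldolase A gene, averaged 0.873 RPKM in 4N-2 and 1.47 RPKM in 2N-2, and its change of -0.60 passed at an adjusted p of 0.0121 by limma.

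The other large clusters shifted less in 4N-2. In cluster 20, 16 of 38 members fell and 4 rose (median -0.22), and 7 of the 17 other genes within its bounds fell (median -0.22). Among those 7 were AC003002.1, AC003002.2, AC003002.3 and AC003005.1, loci that lie among the members. In cluster 18, 15 of 31 fell and 6 rose (median -0.22), in cluster 19, 8 of 14 fell and 2 rose (median -0.28), and in cluster 10, 7 of 12 fell and none rose (median -0.22). Cluster 3 had 7 of 13 that fell and none that rose (median -0.14). Cluster 4 had 3 of 18 that fell and 3 that rose, and cluster 6 had 4 of 17 that fell and 2 that rose, with medians of -0.08 each. In 4N-1, cluster 6 had 5 of 17 that fell and 1 that rose. The clusters were not tested against each other.

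**Figure D4:**
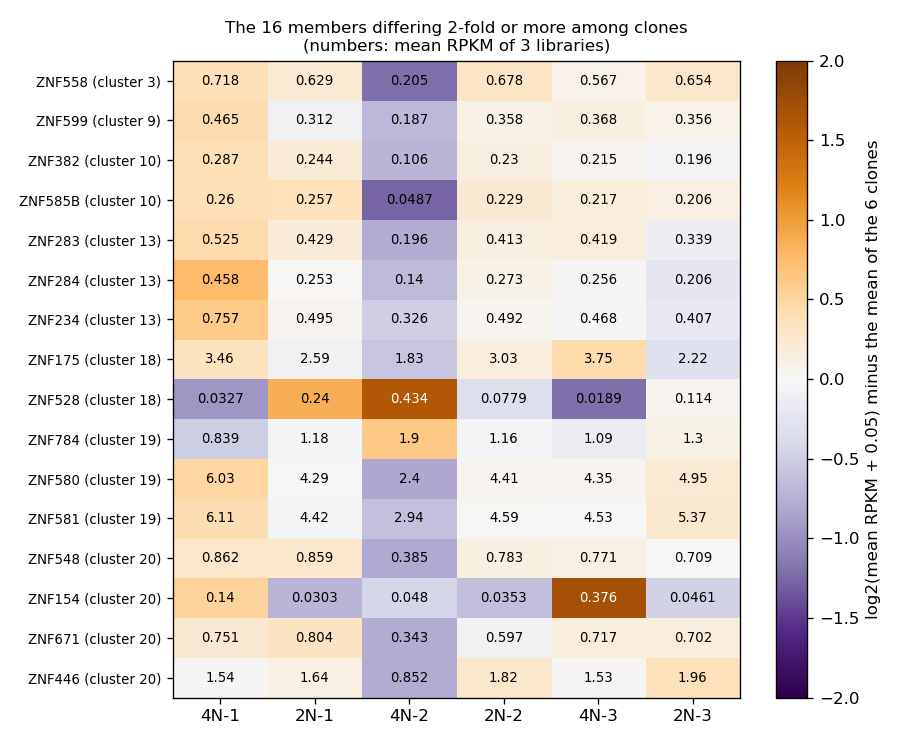
Mean RPKM of 3 libraries (numbers) in each clone for the 16 members with a span of 2-fold or more, in chromosomal order; colour is log2(mean RPKM + 0.05) minus the mean of the 6 clones. The 4N-2 column is the lowest for 13 of the 16, ZNF784 and ZNF528 are highest there, and ZNF154 stands out in 4N-3.

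Of the 16 members with a span of 2-fold or more, 13 were lowest in 4N-2. These 13 were ZNF558, ZNF599, ZNF382, ZNF585B, ZNF283, ZNF284, ZNF234, ZNF175, ZNF580, ZNF581, ZNF548, ZNF671 and ZNF446. The same count was not made for the 2845 genes of any kind that passed this rule. Over all tested genes, 4N-2 was the clone with the largest shares lost (4.17%) and gained (3.25%), so the count is not a trait shown for members alone. ZNF446, which has a SCAN domain beside its zinc fingers, was called in pair 2. It lay at 0.920, 0.880 and 0.756 RPKM in 4N-2, against 1.78, 1.95 and 1.74 RPKM in 2N-2, with a log2 change of -1.06 (SE 0.13, adjusted p 2.73e-05 by limma). Without library C of 4N-2 that change was -0.979, under the 2-fold limit. ZNF671, whose promoter is known to be methylated in tumours, lay at 0.361, 0.341 and 0.328 RPKM in 4N-2, against 0.588, 0.626 and 0.578 RPKM in 2N-2. ZNF548 lay at 0.353, 0.408 and 0.394 RPKM in 4N-2, against 0.792, 0.780 and 0.777 RPKM in 2N-2. Neither overlapped between the clones, and both fell by 0.95 on the log2 scale in 4N-2 against the other 5 clones. ZNF382 averaged 0.106 ± 0.009 RPKM in 4N-2 and 0.230 ± 0.021 RPKM in 2N-2, and ZNF599 averaged 0.187 ± 0.032 RPKM in 4N-2 and 0.358 ± 0.030 RPKM in 2N-2 (SD, n = 3 each). ZNF580 and ZNF581, short proteins without a KRAB domain, overlap each other on the same strand, so that their reads are uncertain. ZNF580 averaged 2.40 ± 0.12 RPKM in 4N-2 and 4.41 ± 0.43 RPKM in 2N-2. Without library A of 4N-2, ZNF580 and ZNF446 reached the 2-fold limit against the other 5 clones (-1.006 and -1.002), which made 4 lost members in that clone.

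ZNF784 and ZNF175 had other orders. ZNF784 lay at 1.78, 2.00 and 1.92 RPKM in 4N-2, against 1.09, 1.31 and 1.09 RPKM in 2N-2, and rose by 0.69 (adjusted p 0.00829 by limma). Its library A of 2N-3 was at 1.89 RPKM, within the range of 4N-2, and B and C of that clone were at 1.01 and 1.02 RPKM. ZNF175, a KRAB zinc finger gene, was highest in 4N-3, at 3.65, 3.54 and 4.07 RPKM, against 1.52, 2.56 and 2.59 RPKM in 2N-3. It rose there by 0.78 (SE 0.16, adjusted p 0.0114 by limma) and fell by 0.72 in pair 2 (adjusted p 0.00237). The value of 1.52 RPKM in 2N-3 is that of library A. It enlarges the change in pair 3, and the change without it is not given here.

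Between the partners of a pair, pair 1 had 12 members that rose and 21 that fell (8.25% and 7.88% of all tested genes did). Pair 2 had 17 that rose and 70 that fell (17.1% and 17.9% of all), and pair 3 had 7 and 4 (1.93% and 1.67% of all). The median log2 change of the members was 0.00, -0.17 and 0.10 in the order of the pairs, and without library A of 2N-3 that of pair 3 was 0.02. At 2-fold or more, ZNF154 was called higher in pair 1 (0.909% of all tested genes were) and ZNF528 lower (1.56%), which is 2 members where 2.47% of all were called. In pair 2, ZNF528 was called higher (3.49% of all) and ZNF558, ZNF585B and ZNF446 lower (4.26%), which is 4 members where 7.74% of all were called. In pair 3, ZNF154 was called higher (0.315% of all) and ZNF528 lower (0.542%), which is 2 members where 0.857% of all were called. With limma-voom on recovered reads, 7 members were called in pair 1 (3.85%, where 3.23% of all genes were). In pair 2 it was 12 (6.59%, where 9.63% were), 11 of them lower (6.04%, where 5.4% were). In pair 3 it was 3 (1.65%, where 1.04% were). No member was called in the same direction in all 3 pairs. Across the clones, with the pair as a block, limma called 0 members, and 3 had an unadjusted p under 0.05 (863 of all 19360 genes). limma-voom on recovered reads called 0 too. The change differed by 2-fold or more between pairs 1 and 2 in 15 members (11.4% of all tested genes), between pairs 2 and 3 in 11 (7.78%) and between pairs 1 and 3 in 3 (2.57%), by the test of the difference.

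At any fold, ZNF528 and ZNF426 passed in all 3 pairs, which is 1.1% of members where 1.34% of all tested genes passed, and both are named because the count is small. ZNF426, a KRAB zinc finger gene in cluster 3, was higher in the 4N clone of each pair, as were 0.563% of all tested genes. Its libraries lay at 0.647, 0.665 and 0.771 RPKM in 4N-1, against 0.305, 0.310 and 0.374 RPKM in 2N-1. They lay at 0.539, 0.578 and 0.569 RPKM in 4N-2, against 0.375, 0.333 and 0.359 RPKM in 2N-2. In pair 3 they lay at 0.643, 0.662 and 0.720 RPKM in 4N-3, against 0.208, 0.427 and 0.409 RPKM in 2N-3. All 9 libraries of 4N clones were above all 9 of 2N clones. The share of all tested genes that part in this way was not counted. The 9 libraries stand for 3 clones, and limma across the clones called 0 members. The log2 changes were 0.97 (adjusted p 0.00176), 0.59 (adjusted p 0.0163) and 0.92 (adjusted p 0.00881) in pairs 1, 2 and 3 by limma (SE 0.17 each). The value of 0.208 RPKM in 2N-3 is that of library A, which stood apart from the others. It enlarges the change in pair 3, and the change without it is not given here. With limma-voom on recovered reads, ZNF426 was called higher at 2-fold or more in pairs 1 and 3, and not in pair 2.

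The machinery through which KRAB zinc finger proteins act was followed as a list of silencing and DNA methylation genes, of which 29 were tested. In pair 1, 2 of the list rose (6.9%, where 8.25% of all tested genes did) and 7 fell (24.1%, where 7.88% did). In pair 2, 5 rose (17.2%, where 17.1% did) and 8 fell (27.6%, where 17.9% did). In pair 3, 0 rose (1.93% of all did) and 1 fell (3.45%, where 1.67% did). SUV39H1, a histone H3 lysine 9 methyltransferase, averaged 0.562 ± 0.021 RPKM in 4N-1 and 1.30 ± 0.17 RPKM in 2N-1 (SD, n = 3 each) and was called lower (-1.14, adjusted p 0.00147 by limma). It rose by 0.66 in pair 2 (adjusted p 0.0184). CBX5 and CBX1, HP1 proteins, fell by 0.58 and 0.40 in pair 1 (adjusted p 0.0212 and 0.0187) and rose by 0.54 and 0.53 in pair 2 (adjusted p 0.0158 and 0.00136), by limma. TET2, which oxidises methylated cytosine, averaged 0.123 RPKM in 4N-2 and 0.313 RPKM in 2N-2 and was called lower (-1.07, adjusted p 0.000524 by limma). SETDB1, the methyltransferase recruited by TRIM28, averaged 0.641 RPKM in 4N-2 and 1.05 RPKM in 2N-2 and fell by 0.67 (adjusted p 1.55e-06 by limma). In the same pair CHD4 and HDAC1 fell by 0.75 and 0.64 (adjusted p 2.29e-05 and 1.44e-06). DAXX rose by 0.35 in pair 2 (adjusted p 0.00491 by limma). TRIM28 itself averaged 29.04 RPKM in 4N-1 and 40.8 RPKM in 2N-1, a change of -0.49 (adjusted p 0.042 by limma), and had changes of -0.12 and -0.03 in pairs 2 and 3 that did not pass. DNMT1 fell by 0.82 in pair 1 (adjusted p 0.00266 by limma). ZNF274, which is both a member and on the list and is known to bind ZNF gene clusters, lay at 0.722, 0.753 and 0.744 RPKM in 4N-2, against 0.526, 0.532 and 0.516 RPKM in 2N-2. It rose by 0.46 in pair 2 (adjusted p 1.38e-05 by limma) and fell by 0.27 in pair 3 (adjusted p 0.0123). The part of these genes in the changes of the members was not tested.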

How the data were processed

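PolyA RNA of 18 libraries was measured with a stranded TruSeq kit, per the labels. CASAVA 1.8.2, TopHat2 and edgeR are named, with hg19, per the submitters' processing notes; the annotation and the use of strand in counting are not given in the sources used here. The deposited values are RPKM computed by the authors. The length they imply was within 0.5% of the genomic span, introns included, in 87.2% of 24611 genes that had over 50 reads. Whole reads were recovered (99.577% of values above 0 within 0.01 reads), with library divisors of 36.1 to 54.8 M. Symbols and coordinates came from GENCODE v29 (GRCh38, not hg19), which matched 52338 identifiers, and promoters from RefSeq.

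Genes with a mean of 0.1 RPKM or more entered a limma fit (version 3.58.1, R 4.3.3) on log2(RPKM + 0.05), with a mean per clone, a common spread over all 18 libraries and a trend, after a check on simulated data. Tests are two-sided. Replicates count as separate samples of 1 clone. Named members were the lost, gained and called ones, the 5 with the highest mean and the 3 with the smallest span; the 16 with a 2-fold span, and other neighbours, were added after their values were seen. Members and lists were chosen with earlier results of these data known. The design asked for genes with near-identical proteins to be set apart; shared 50-base transcript windows (10% or more, 11 members) were used instead. Alternatives were other constants and minimums, another scaling, limma-voom on recovered reads, a replicate block, and leaving out libraries.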

Additional observations from a re-analysis of the deposited data

Results flagged for a closer look

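For 21 members the change between the 4N and the 2N clone differed between pairs, by limma's test of the difference itself (adjusted p under 0.05) at 2-fold or more. It did so in 15 of 182 members between pairs 1 and 2, where 11.4% of all tested genes did. The counts were 11 between pairs 2 and 3 (7.78% of all) and 3 between pairs 1 and 3 (2.57% of all). With both directions together, no comparison had a share of members above that of all tested genes. By direction, 12 members had the higher change in pair 1 against pair 2 (6.59%, all genes 5.58%) and 3 the lower (1.65%, all genes 5.86%). For pair 2 against pair 3, 10 were lower (5.49%, all genes 4.02%) and 1 higher (0.549%, all genes 3.77%). For pair 1 against pair 3, 3 were lower (1.65%, all genes 1.38%) and 0 higher (all genes 1.19%). Each value is the log2 change in the pair named first minus that in the other.

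ZNF528 differed by -3.74 between pair 1 and pair 2 (adjusted p 1.64e-07) and by 3.15 between pair 2 and pair 3 (adjusted p 1.03e-06). ZNF154 differed by 1.04 (adjusted p 0.00531) and -1.95 (adjusted p 7.53e-05) in the same order. ZNF558 differed by 1.69 (adjusted p 9.39e-06) and -1.33 (adjusted p 0.000102), and ZNF585B by 1.51 (adjusted p 3.77e-05) and -1.56 (adjusted p 4.53e-05). In all of these both differences passed.

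In cluster 13, ZNF283 differed by 1.18 (adjusted p 0.000107) between pair 1 and pair 2 and by -1.19 (adjusted p 0.000148) between pair 2 and pair 3. ZNF284 differed by 1.52 (adjusted p 1.64e-05) and -1.04 (adjusted p 0.000512) in that order. ZNF234 differed by 1.10 (adjusted p 0.000374) between pair 1 and pair 2. ZNF175 in cluster 18 differed by 1.13 (adjusted p 0.00143) and -1.50 (adjusted p 0.000252).

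Between pair 1 and pair 2 alone, ZNF382 differed by 1.05 (adjusted p 0.00165), ZNF580 by 1.35 (adjusted p 0.000216), ZNF581 by 1.09 (adjusted p 0.00187), ZNF599 by 1.30 (adjusted p 0.00014), ZNF784 by -1.15 (adjusted p 0.00347) and ZNF574 by -1.08 (adjusted p 0.000271). Between pair 2 and pair 3 alone, ZNF548 differed by -1.08 (adjusted p 0.000561), ZNF132 by -1.16 (adjusted p 0.000845) and ZNF468 by -1.27 (adjusted p 0.000872). ZNF224 of cluster 13 differed by 1.03 (adjusted p 0.0236) between pair 1 and pair 2 and by -1.02 (adjusted p 0.0313) between pair 2 and pair 3. Between pair 1 and pair 3, ZNF100 differed by -1.14 (adjusted p 0.0038), ZNF530 by -1.09 (adjusted p 0.0125) and ZNF714 by -1.10 (adjusted p 0.0244).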

How the results depend on the processing

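The changes tested for the named members kept their direction under the alternatives run. Several medians near 0 did not; with 1 RPKM or more in 3 libraries the median of all genes was 0.035 in 4N-2 and 0.043 in pair 2, and that of the members in 2N-2 was -0.01. Of 42 results on named members, the call kept its side of the threshold in 1028 of 1060 recomputed values. Most of these values came from fits that left out 1 library, so the total says little about the other settings. With a constant of 0.5 RPKM, 15 of the 42 were weaker. With limma-voom 7 were stronger, and with 0.01 RPKM 6 were. On limma-voom with recovered reads, 7 members were called in pair 1 (3.85%, all genes 3.23%) and 12 in pair 2 (6.59%, all genes 9.63%). In pair 3 it was 3 (1.65%, all genes 1.04%). In 4N-1, 2 were lost and 2 gained (1.1% each, all genes 2.04% and 1.35%), and in 4N-2, 9 were lost (4.95%, all genes 5.0%). In 2N-1 and 2N-2, 1 each was lost (0.549% each, all genes 0.471% and 0.476%), and 32 differed among clones by 2-fold or more (17.6%, all genes 17.2%). This fit changes the constant, the weights and the genes tested at once, and the cause was not tested. With a constant of 0.01 RPKM the counts were 5, 10 and 3 for pairs 1, 2 and 3. There, 2 were lost and 2 gained in 4N-1, and 6 were lost in 4N-2, 1 in 2N-1 and 1 in 2N-2. Among clones 27 differed. Of members, 2.75% were then called in pair 1 (3.07% of all genes), 5.49% in pair 2 (9.16%) and 1.65% in pair 3 (0.987%). In 4N-2, 3.3% were lost (5.22% of all). In 4N-1, 1.1% each were lost and gained (2.05% and 0.992% of all), and 0.549% each were lost in 2N-1 and 2N-2 (0.496% and 0.46%). With 0.5 RPKM, 0 were called in pairs 1, 2 and 3 (0.77%, 2.69% and 0.181% of all genes were). In 4N-1, 4N-2 and 4N-3, 0 were lost (0.475%, 1.18% and 0.0517% of all). In 4N-2, 4N-3 and 2N-1, 0 were gained (1.21%, 0.0362% and 0.0155% of all), and 1 differed among clones (0.549%, all genes 5.81%). A larger constant shrinks low levels by construction.

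Where only genes with 1 RPKM or more in 3 libraries were tested, which leaves few members, 0 were called in pairs 1 and 3 and 1 in pair 2. There, 0 were lost in 4N-1, 4N-2 and 4N-3, 0 were gained in 4N-2, 4N-3 and 2N-1, 14 fell and 4 rose in 4N-2 at any fold, 11 rose in 4N-1, 5 differed among clones, and in cluster 13, 2 fell in 4N-2 and 2 rose in 4N-1. The number of members left and the shares over all genes are not given for this minimum, so these counts cannot be set against a background. At 5% of the highest clone instead of 10%, 1 member was off in a clone. Leaving out 1 library at a time gave 2 to 4 members lost in 4N-2, 0 to 1 gained in 2N-1 and 30 to 66 higher in 4N-1 at any fold. Without 4N-3 C and 2N-3 A, chosen after seeing the data, 69 rose in 4N-1 and 29 in 4N-2.

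The letters A, B and C were not taken to pair the libraries, since the correlations of deviations between partners were -0.0459 to 0.0715. As a hint from the data, 11 of 18 libraries correlated best with their own letter. A replicate block left 2, 4 and 2 members called in pairs 1, 2 and 3. The planned edgeR fit was not run, as the deposited unit is RPKM.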

Other observations

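Among the 65 zinc finger genes of chromosome 19 under the minimum, 14 had a clone mean of 0.1 RPKM or a higher one. Chosen after their values were seen, ZNF682 and ZNF737 of cluster 6 were, like ZNF528, lower in the 4N clone of pairs 1 and 3 and higher in that of pair 2. ZNF682 had 14 reads over 3 libraries in 4N-1 against 306 in 2N-1, 239 in 4N-2 against 24 in 2N-2, and 14 in 4N-3 against 176 in 2N-3. ZNF737 had 146 reads in 4N-1 against 433 in 2N-1, 552 in 4N-2 against 72 in 2N-2, and 90 in 4N-3 against 367 in 2N-3. Per library size, the ratio of 4N-2 over 2N-2 was 12 (95% exact interval 7.90 to 19.2) for ZNF682 and 9.27 (7.24 to 12) for ZNF737, and that of 4N-1 over 2N-1 was 0.0415 (0.0224 to 0.0708) for ZNF682 and 0.306 (0.252 to 0.370) for ZNF737. ZNF682 and ZNF737 lie in another position cluster than ZNF528. Other genes under the minimum had other patterns, by a limma fit without a minimum. ZNF781 was higher in the 4N clone of pairs 1, 2 and 3 (log2 changes 0.678, 0.465 and 0.352). ZNF790 (-0.482, -0.461 and -0.427) and ZNF568 (-0.483, -0.731 and -0.282) were lower in each. All of these passed an adjusted p under 0.05. Their levels lie near or under the constant of 0.05 RPKM, which shrinks these log2 changes. In reads, ZNF781 had 110 in 4N-1 against 6 in 2N-1, 61 in 4N-2 against 3 in 2N-2, and 108 in 4N-3 against 51 in 2N-3. ZNF790 had 20 against 106, 50 against 179 and 64 against 157 in the same order. ZNF568 had 457 against 779, 255 against 923 and 388 against 577. ZNF506 was called lower in pair 2 (-1.257) and rose in pairs 1 and 3 (0.336 and 0.444).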
